A study of Danio rerio with 28 samples.

Results

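Collagen genes other than those of types 2 and 9, together with the genes of the lysyl oxidases, lysyl hydroxylases and prolyl 4-hydroxylases, were followed across cadmium and PCB126 exposure in zebrafish larvae. They were chosen by gene symbol, as every collagen chain gene outside types 2 and 9 and every gene whose symbol begins with lox, plod or p4ha. The rule took 67 of the 38318 genes of the count table, of which 48 are collagen genes. It also took 4 genes that neither encode a collagen nor modify one, named loxhd1a, loxhd1b, col4a3bpa and col4a3bpb.

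The larvae were AB wild-type fish, taken whole, that were held in E3 medium at 28.5 °C and exposed between 1 and 5 days after fertilization. Of the 7 groups of 4 libraries, 3 received PCB126, a dioxin-like polychlorinated biphenyl that activates the aryl hydrocarbon receptor, at 0.08, 0.4 or 0.8 nM. A further 3 received cadmium (Cd), a toxic metal, at 2.4, 12 or 24 ug/L, and 1 was control. Both chemicals are compared with the same 4 control libraries, whose column names carry the Cd prefix, and no vehicle is named. It is not given whether these controls were raised beside the PCB126 groups, so PCB126 and any difference between the 2 sets of larvae cannot be told apart. Separate clutches or dishes for the 4 libraries of each group are not named, so the p-values measure only the spread between these samples, which may be technical. The series title names endocrine disruption as the subject. In whole larvae, fewer cells of a type and less RNA per cell cannot be told apart.

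Collagens are triple helices of 3 chains that give connective tissue its strength. Fibrillar types 1, 5 and 11 form the fibrils of bone, skin, tendon and cartilage. Type 4 builds the sheet-like network of basement membranes, type 6 forms beaded microfibrils, and type 10 belongs to maturing cartilage and, in zebrafish, also to the osteoblasts that lay down bone. Prolyl 4-hydroxylases make the chains able to hold a stable helix, lysyl hydroxylases prepare lysines for crosslinks and sugars, and lysyl oxidases, which are copper enzymes, begin the crosslinks outside the cell.

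Libraries held 11893345 to 20770004 counts, with a median of 14251922. Levels within a gene are given as counts-per-million (CPM) after scaling of library sizes by the TMM method of edgeR, and levels between genes as the authors' transcripts-per-million (TPM), which corrects for gene length. Of the 67 genes, 63 had enough counts to be tested. The others were loxl5a with 48 counts over all libraries, col8a1a with 0, and the 2 models named col6a3, which overlap by 6551 bases on chromosome 9 and held 5 and 0 counts. A gene is said to be called at a Benjamini-Hochberg adjusted p below 0.05 over all genes tested, from edgeR's quasi-likelihood test.

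A pair of libraries, control replicate 4 and replicate 3 of Cd 2.4 ug/L, differed from the rest over all genes, these genes among them. Against the other libraries of their groups, the chi-square per degree of freedom over genes was 110 to 115 and 88.6 to 91.9. Between the remaining libraries of a group it was 3.77 to 9.08. The TMM factors of the pair were 0.646 and 0.687, against 0.993 to 1.08 elsewhere. The 67 genes took 0.724% of the counts of control replicate 4 and 0.576% of those of Cd 2.4 ug/L replicate 3, against 1.02% to 1.38% in each of the other 26 libraries. The basement membrane chain gene col4a1 stood at 4.02 CPM in control replicate 4 and 2.86 CPM in Cd 2.4 ug/L replicate 3, against 52.8 to 101 CPM elsewhere. Set against the other libraries of their own groups, both were lower for 44 of the 63 genes, by more than 1 on the log2 scale for 17. The median difference over the 63 genes was -0.56 in control replicate 4 and -0.72 in Cd 2.4 ug/L replicate 3. Over all genes tested the medians were 0.01 and -0.03, with ranges of -4.69 to 5.37 and -5.25 to 4.41. TMM scaling itself places most genes near 0, so these medians cannot show whether the shift is particular to the 63 genes. The deepest differences were in col4a1 (-4.34 and -4.45), col4a2 (-2.73 and -3.25), col8a2 (-2.61 and -2.41) and p4ha1a (-2.36 and -2.07). The collagen gene col10a1a and the enzyme genes loxa and p4ha2 were instead higher in both by more than 0.3 in CPM. This direction depends on the scaling of libraries. On the TPM scale, which has no TMM factor, these genes were lower in both than in the other libraries of their groups. There col10a1a stood at 233 TPM in both, against 355 to 370 TPM in the other controls and 323 to 353 TPM in the other Cd 2.4 ug/L libraries. Ribosomal protein genes took 12.0% and 12.4% of the counts of these libraries, against 5.62% to 6.57% elsewhere, and the part of that difference in the results was not tested. Results are therefore given with all 28 libraries and without these 2, here called the divergent libraries.

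**Figure D1:**
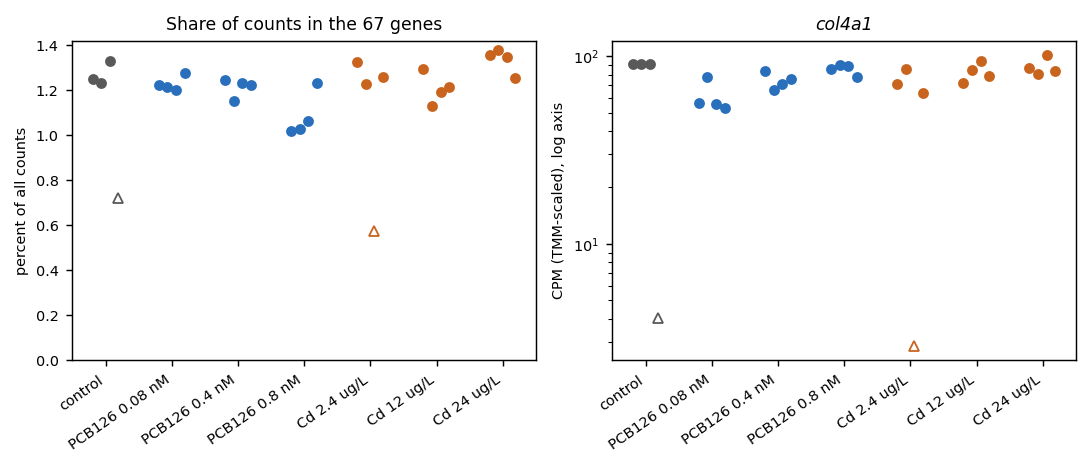
Share of all counts held by the 67 genes (left, percent) and CPM of col4a1 (right, log axis) in each library, by group. Open triangles mark control replicate 4 and Cd 2.4 ug/L replicate 3, with shares of 0.724% and 0.576% against at least 1.02% in every other library.

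The most abundant messages were those of 2 type 1 collagen genes. Over the 28 libraries the mean TPM was 805 for col1a1b and 672 for col1a2. Next came col10a1a at 330 TPM, the remaining type 1 gene col1a1a at 292 TPM, the basement membrane chain gene col4a5 at 201 TPM, and the fibrillar genes col5a2a at 188 and col11a1a at 181 TPM. The other classes were led by col17a1a, a transmembrane collagen of the epidermal anchoring junction, at 156 TPM, by col12a1a, which sits on fibril surfaces, at 97.2 TPM, by col6a1 at 96.7 TPM and by col8a2 at 31.2 TPM. The enzyme genes were lower, with loxl2a at 26.97, plod1a at 19.7 and p4ha2 at 14.8 TPM as the highest of their families. The lysyl oxidase gene loxl5b stood at 1.51 TPM, about as low as col10a1b at 1.95 TPM.

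Ratios of TPM between partner chains were steady over the libraries for some pairs and less so for others. The sum of col1a1a and col1a1b was 1.62 ± 0.10 times col1a2 (SD over 28 libraries, range 1.27 to 1.76). The ratio of col4a5 to col4a6, a pair that lies head to head on chromosome 7 with 752 bases between the genes, was 3.09 ± 0.21, and that of col6a1 to col6a2 was 1.41 ± 0.08. The ratio of col4a1 to col4a2 averaged 0.887 and had its lowest value, 0.284, in control replicate 4. The ratio of col4a3 to col4a4 was 1.38 ± 0.33 (range 0.925 to 2.06) and that of col5a1 to col5a2a 0.744 ± 0.09 (range 0.685 to 1.19). The highest value of the latter was in Cd 2.4 ug/L replicate 3, and its SD within each group other than Cd 2.4 ug/L was 0.01 to 0.04. The 2 type 10 genes were compared as genes of the same type and not as partner chains, with col10a1a holding on average 184 times the TPM of col10a1b.

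At the highest dose of PCB126, 3 of the 63 genes fell against control and none rose: the lysyl oxidase gene loxl5b, the type 10 collagen gene col10a1a and the cartilage fibril gene col11a2. Of the 25393 genes tested, 3.49% were called in this comparison, with 1.47% lower and 2.02% higher. The median log2 fold change was -0.03 over the 63 genes and -0.01 over all genes tested, with 34 of the 63 below 0. An unadjusted p below 0.05 was reached by 13 of the 63 that were lower and 5 that were higher, against 10.6% and 6.93% of all genes. With DESeq2 7 of the 63 were called, against 5.91% of all genes, and these were the same 3 with loxa, loxl2b, loxl4 and p4ha2.

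The gene loxl5b encodes a member of the lysyl oxidase family (ENSDARG00000076904, chromosome 2, 56012016 to 56041890, plus strand, GRCz11). It stood at 1.56, 1.703, 0.820 and 2.04 CPM at PCB126 0.8 nM, against 4.82, 5.01, 3.95 and 5.66 CPM in controls. Every library of the exposed group lay below every control. The log2 fold change was -1.66 ± 0.24 (SE; adjusted p = 0.000101, edgeR), a 3.15-fold lower level. Along the PCB126 series the mean was 4.86 ± 0.71 CPM in controls, 3.81 ± 0.44 at 0.08 nM, 3.23 ± 0.67 at 0.4 nM and 1.53 ± 0.52 at 0.8 nM (SD, n = 4 each). Neither lower dose was called, with log2 fold changes of -0.35 ± 0.23 at 0.08 nM and -0.58 ± 0.23 at 0.4 nM (adjusted p = 0.660 and 0.327). The difference of the highest from the lowest dose was itself called, at -1.31 ± 0.24 (adjusted p = 0.00416). In the Cd groups the mean was 4.42 ± 1.27 CPM at 2.4 ug/L, 3.96 ± 0.77 at 12 ug/L and 4.75 ± 0.40 at 24 ug/L.

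The gene col10a1a (ENSDARG00000054753, chromosome 17, 15542077 to 15546862, minus strand) encodes the short-chain collagen of maturing cartilage and bone. It stood at 306, 301, 312 and 366 CPM at PCB126 0.8 nM, against 409, 425, 432 and 556 CPM in controls. The groups did not overlap, and the highest of the exposed libraries was replicate 4. The log2 fold change was -0.50 ± 0.10 (adjusted p = 0.00489). The place of control replicate 4 depends on the scaling of libraries, since on the TPM scale, which has no TMM factor, col10a1a stood at 270 ± 14.6 TPM at PCB126 0.8 nM (SD, n = 4) and at 355, 369, 369.7 and 233 TPM in the controls. Along the PCB126 series the mean was 456 ± 68.0 CPM in controls, 422 ± 10.1 at 0.08 nM, 392 ± 28.7 at 0.4 nM and 321 ± 30.3 at 0.8 nM. The difference of the highest from the lowest dose was -0.39 ± 0.10 and was not called (adjusted p = 0.0725). In the Cd groups the mean was 450 ± 62.5 CPM at 2.4 ug/L, 400 ± 39.3 at 12 ug/L and 478 ± 24.6 at 24 ug/L.

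The gene col11a2 (ENSDARG00000012422, chromosome 19, 7179740 to 7225206, minus strand) encodes a chain of type 11 collagen, the thin fibril of cartilage. It stood at 344, 368, 358 and 460 CPM at PCB126 0.8 nM, against 556, 543, 588 and 468 CPM in controls. Here the groups came close, since the highest exposed library, replicate 4, lay just under the lowest control, replicate 4. That order depends on the scaling. On the TPM scale control replicate 4 stood at 64.1 TPM, below the exposed libraries at 98.2 to 119 TPM, and the other controls lay above them at 154 to 165 TPM. The log2 fold change was -0.49 ± 0.12 (adjusted p = 0.0202). At 0.08 and 0.4 nM the means were 545 ± 19.8 and 485 ± 33.1 CPM, and the difference of the highest from the lowest dose was called at -0.51 ± 0.12 (adjusted p = 0.0369). In the Cd groups the mean was 540 ± 113 CPM at 2.4 ug/L, 528 ± 47.1 at 12 ug/L and 576 ± 27.2 at 24 ug/L.

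**Figure D2:**
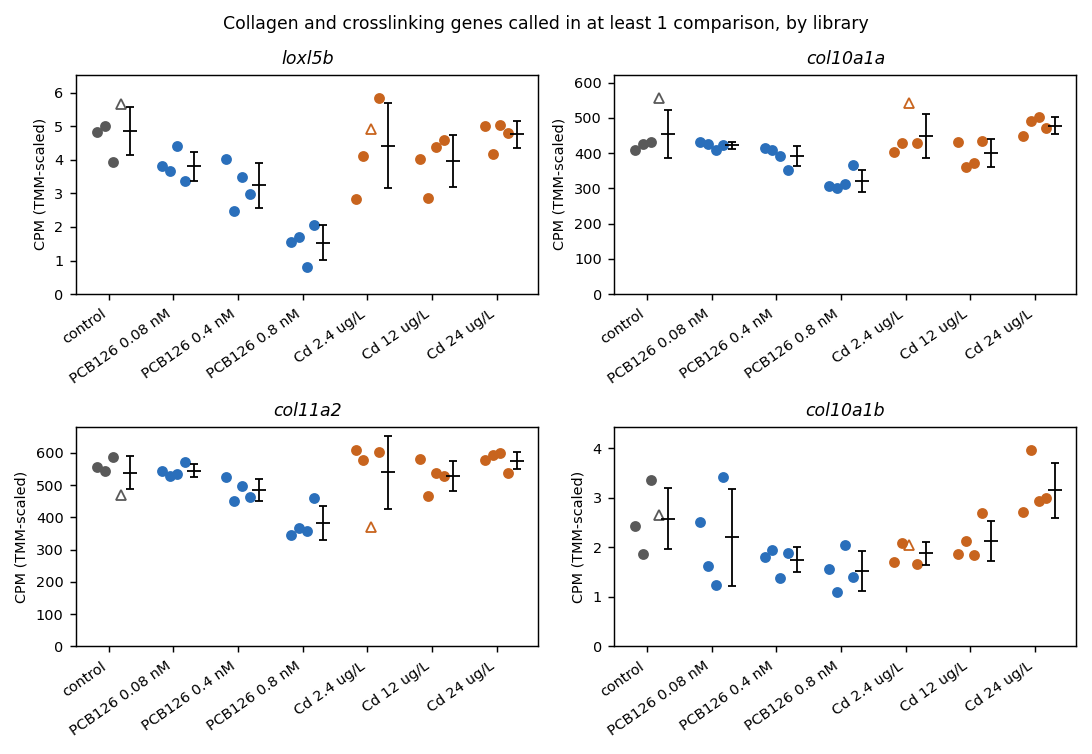
CPM (TMM-scaled) of loxl5b, col10a1a, col11a2 and col10a1b in each library, by group, with the mean and SD of 4 libraries beside the points and the divergent libraries as open triangles. The 4 libraries of PCB126 0.8 nM lie below all controls for loxl5b, col10a1a and col11a2. On the TPM scale control replicate 4 lies below them for col10a1a and col11a2.

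When only the 8 libraries of PCB126 0.8 nM and control were fitted, none of the 3 calls held (adjusted p = 0.0665 for loxl5b, 0.274 for col10a1a and 0.279 for col11a2). Without the divergent libraries 12 genes were called, against 8.73% of all genes, and these included the 3, with loxl5b at -1.58, col10a1a at -0.39 and col11a2 at -0.55. Leaving out replicate 4 of PCB126 0.8 nM gave 7 calls, and leaving out control replicate 2 gave 6. The shares of all genes called in those fits are not given here. The call of col11a2 also ended without control replicate 3 (adjusted p = 0.0529) or without any of replicates 1, 2 and 3 of PCB126 0.8 nM (0.0598 to 0.0715).

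As a linear slope on dose, the same 3 genes declined along the PCB126 series of 16 libraries and no other of the 63 was called, against 2.27% of all genes. Their slopes on the log2 scale were -1.88 ± 0.29 per nM for loxl5b (adjusted p = 0.00133), -0.64 ± 0.12 for col11a2 (0.00564) and -0.59 ± 0.12 for col10a1a (0.00928). Slopes without control replicate 4 called 11 genes, and those without PCB126 0.8 nM replicate 4 called 7, with the shares of all genes in those fits not given here. Without both divergent libraries 11 were called, against 6.28% of all genes. Between the highest and lowest dose of PCB126 the 2 calls, loxl5b and col11a2, stand beside 1.02% of all genes, and the call of col11a2 ended in 8 of 14 alternatives. In the fit without the divergent libraries, 21 of the 63 genes were called between these doses, the 2 among them. Of the 25610 genes tested in that fit, 2811 were called in this comparison.

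No gene of the 63 was called in any Cd group or at the lower PCB126 doses. Over all genes the share called was 0.0394% at Cd 2.4 ug/L, 0.173% at 12 ug/L, 0.922% at 24 ug/L, 0.386% at PCB126 0.08 nM and 1.0% at 0.4 nM. An unadjusted p below 0.05 was reached by 2, 6 and 8 genes at the rising Cd doses and by 5 and 7 at PCB126 0.08 and 0.4 nM. Over all genes these shares were 5.43%, 9.3% and 12.8% for Cd and 8.95% and 11.1% for PCB126. With DESeq2 the count was 0 in these groups except for 1 gene, loxl2b, at PCB126 0.08 nM, against 0.922% of all genes. At Cd 24 ug/L, 52 of the 63 genes lay above 0, with a median log2 fold change of 0.19 against -0.02 over all genes. That median was 0.06 without the divergent libraries, with 42 above 0, and 2 genes rose there (col12a1a at 0.19 and loxl2a at 0.66), against 5.08% of all genes called. The Cd slope on dose called none of the 63, against 0.344% of all genes, and 3 without the divergent libraries, against 5.29%. Between the highest and lowest Cd dose none was called, against 0.52% of all genes, and 3 were without the divergent libraries, against 3.79%.

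**Figure D3:**
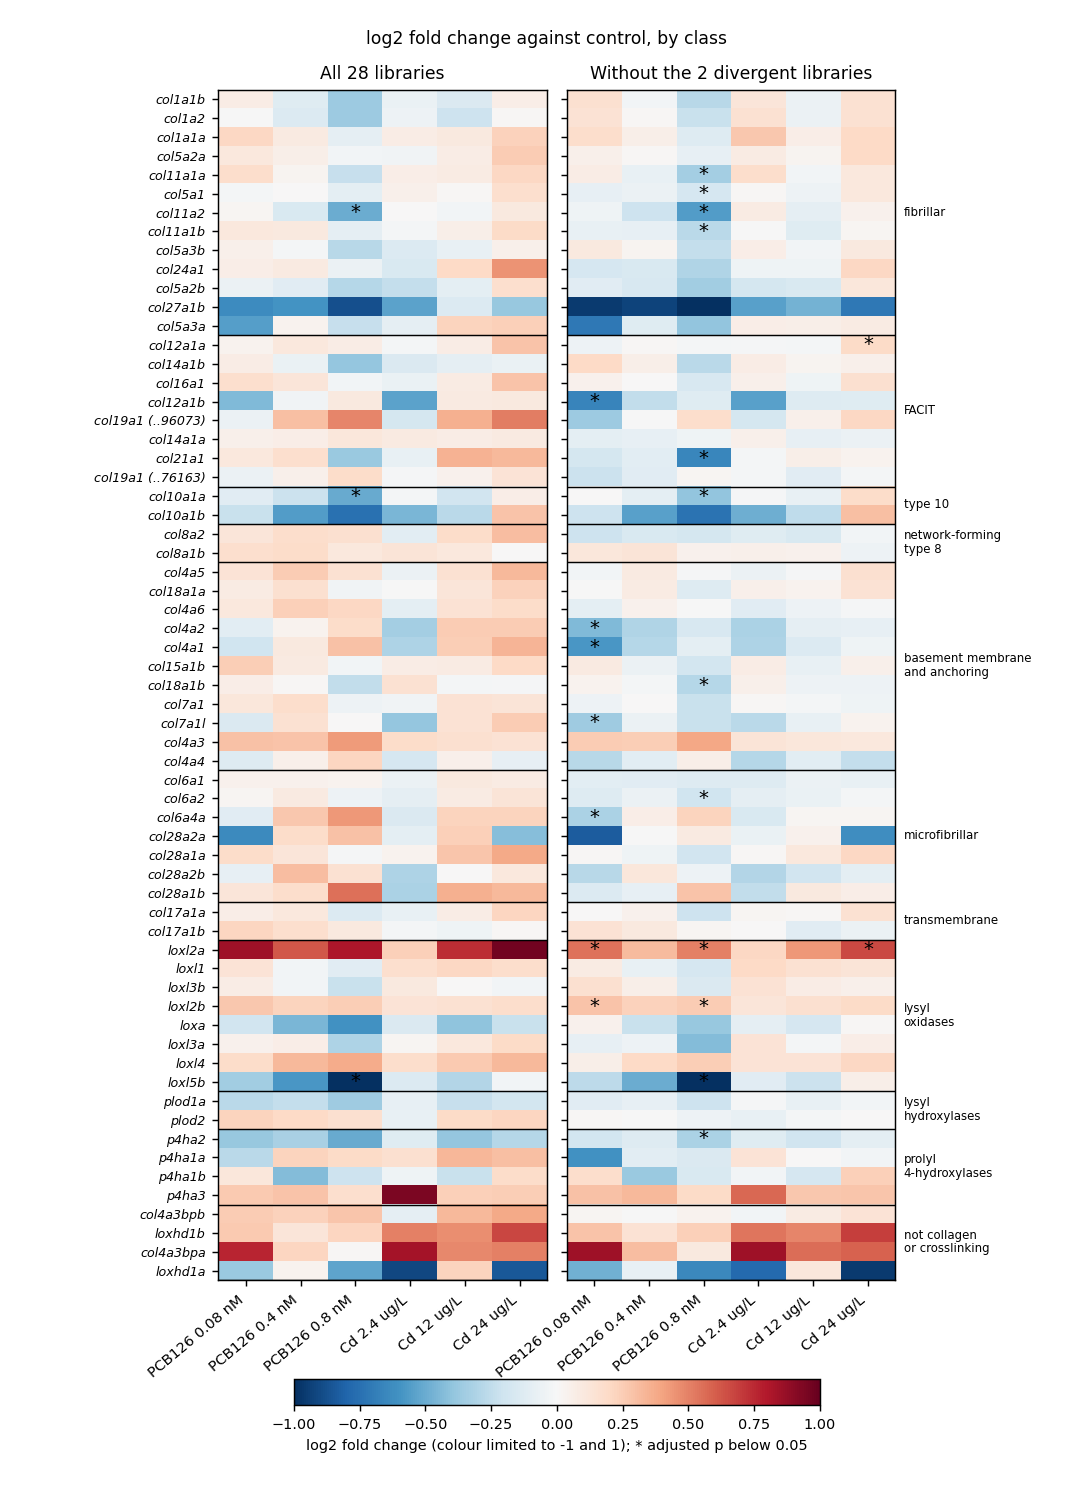
Fitted log2 fold change of each of the 63 genes in the 6 exposed groups against control, by class, with all 28 libraries (left) and without the 2 divergent libraries (right). Colour is limited to -1 and 1, and an asterisk marks an adjusted p below 0.05, which 3 genes reached on the left at PCB126 0.8 nM and 12 on the right.

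The 2 highest doses were also set against each other, which leaves the shared controls and both divergent libraries out of the fold changes. They differ in chemical and in dose unit, so this compares 2 exposed groups and not 2 potencies. PCB126 0.8 nM was lower than Cd 24 ug/L in 4 of the 63 genes and higher in none, against 1.74% of all genes called and 0.736% called lower. These were loxl5b, col11a2, col10a1a and the second type 10 gene, col10a1b. The median log2 fold change was -0.22 over the 63 genes, 48 of them below 0, and 0.00 over all genes tested. An unadjusted p below 0.05 was reached by 18 of the 63 that were lower and by 1 that was higher, against 4.26% and 4.25% of all genes.

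For loxl5b the level of 0.820 to 2.04 CPM at PCB126 0.8 nM stood against 5.00, 4.17, 5.04 and 4.80 CPM at Cd 24 ug/L, a log2 fold change of -1.63 ± 0.24 (adjusted p = 0.000166). For col11a2 the level of 344 to 460 CPM stood against 577, 593, 598 and 538 CPM (-0.59 ± 0.12, adjusted p = 0.00651). For col10a1a the level of 301 to 366 CPM stood against 447, 491, 504 and 471 CPM (-0.57 ± 0.10, adjusted p = 0.00172). The 2 groups did not overlap in any of the 3 genes. These 3 calls held in all 14 alternatives run for each, with adjusted p of at most 0.033.

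The gene col10a1b (ENSDARG00000101535, chromosome 20, 484256 to 487783, minus strand) stood at 1.56, 1.09, 2.05 and 1.41 CPM at PCB126 0.8 nM, against 2.70, 3.96, 2.94 and 2.99 CPM at Cd 24 ug/L. The log2 fold change was -1.04 ± 0.26 (adjusted p = 0.0381). Against control, at 2.44, 1.87, 3.35 and 2.65 CPM, it was -0.75 ± 0.27 and not called (adjusted p = 0.128). The Cd 24 ug/L libraries were higher than controls on average, at 3.15 ± 0.55 against 2.58 ± 0.61 CPM, and did not differ beyond their spread (0.29 ± 0.25, adjusted p = 0.664). The gene lies wholly within nt5dc1 on the other strand, whose log2 fold change between the top doses was 0.01 ± 0.43 and not called. Whether the libraries kept strand is not settled by the labels, so reads of the 2 genes cannot be told apart. The call of col10a1b ended in 9 of 14 alternatives, among them with no filter on low counts (adjusted p = 0.0593) and with replicate number as a block (0.0598).

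Neither divergent library belongs to these groups, and leaving them out changed the shared spread, the scaling and the genes kept by the filter, of which 25610 were tested. In that fit 24 of the 63 genes were lower at PCB126 0.8 nM than at Cd 24 ug/L and none was higher, against 6.57% of all genes called and 3.46% called lower. They were 10 of the 13 fibrillar genes, 3 of 8 fibril-associated, both type 10, 3 of 11 basement membrane, 2 of 7 microfibrillar, 1 of 2 transmembrane and 3 of 8 lysyl oxidase genes, and none of the lysyl hydroxylase, prolyl 4-hydroxylase or type 8 genes. With only the 8 libraries of these groups fitted, 11 were called, and the share of all genes called in that fit is not given here. With DESeq2 7 were called, against 2.58% of all genes, the 4 with col5a1, col5a2b and loxl1.

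**Figure D4:**
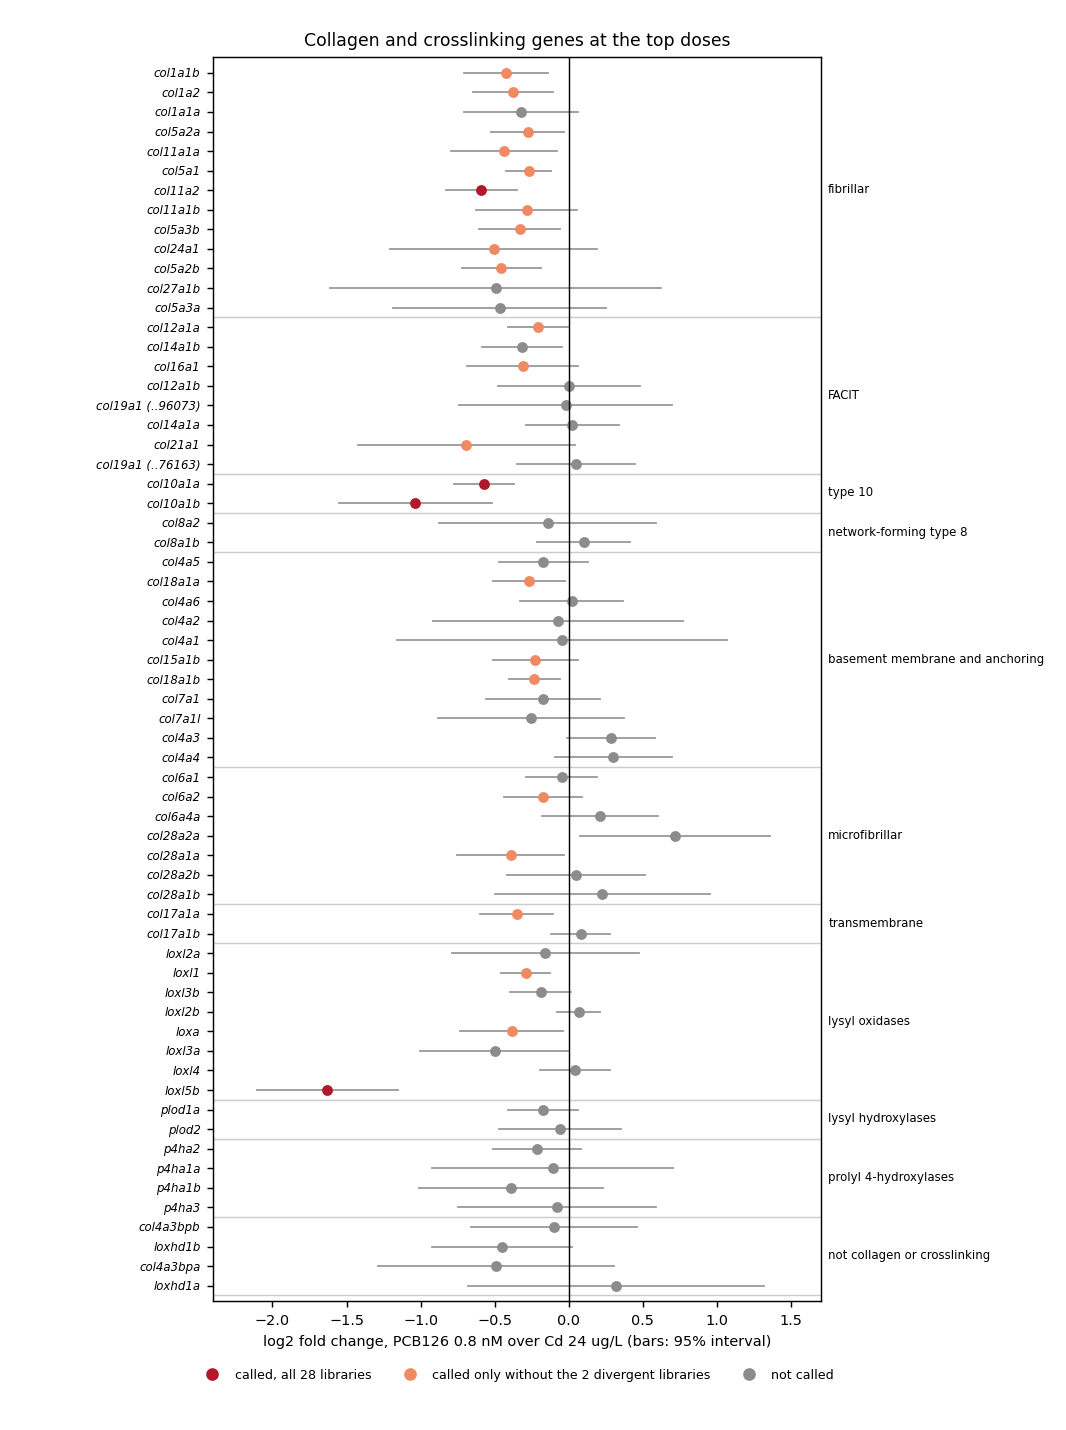
Log2 fold change of PCB126 0.8 nM over Cd 24 ug/L for each of the 63 genes, by class, with its 95% interval from the fit of all 28 libraries. Red points were called with all libraries (4 genes), orange points only without the 2 divergent libraries (20 genes), and all 13 fibrillar points lie left of 0.

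Of the 13 fibrillar collagen genes, all lay below 0 at PCB126 0.8 nM against control (median log2 fold change -0.23, from -0.88 to -0.03), of which col11a2 was called and 4 reached an unadjusted p below 0.05. Against Cd 24 ug/L all 13 again lay below 0 (median -0.42, from -0.59 to -0.27). At Cd 24 ug/L against control 12 of the 13 lay above 0 (median 0.17) and none was called. These counts below and above 0 were the same without the divergent libraries, with medians of -0.28, -0.43 and 0.11. The summed TPM of the class was 2319 ± 290 at PCB126 0.8 nM, 3005 ± 170 at Cd 24 ug/L and 2495 ± 682 in controls (SD, n = 4 each), the last including 1496 TPM in control replicate 4. Genes of this class share cells and fibrils, and these comparisons share libraries, so the 13 signs are not independent.

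The type 1 genes carried most of that sum. The gene col1a1b stood at 1456, 1568, 1662 and 2323 CPM at PCB126 0.8 nM, against 2400, 2541, 2233 and 2235 CPM at Cd 24 ug/L and 2023, 2015, 2334 and 2625 CPM in controls. In CPM, replicate 4 of PCB126 0.8 nM lay inside both other groups, and the other 3 lay below them. This order, too, depends on the scaling. On the TPM scale control replicate 4 stood at 517 TPM, below the exposed libraries at 611 to 865.3 TPM. Replicate 4 of PCB126 0.8 nM, at 865.3 TPM, then lay just below the Cd 24 ug/L libraries at 867.9 to 983 TPM. The log2 fold change was -0.36 ± 0.14 against control and -0.42 ± 0.14 against Cd 24 ug/L, called in neither (adjusted p = 0.185 and 0.206). The values for col1a2 were -0.37 ± 0.14 and -0.37 ± 0.14, and for col1a1a -0.09 ± 0.20 and -0.32 ± 0.20, again with no call. The gene col1a1a shares 17263 bases with AL929222.2 on the other strand, whose reads cannot be told apart from its own. Over all libraries AL929222.2 held 867 counts and col1a1a 348326. The log2 fold change of AL929222.2 was -0.89 ± 0.27 against control (adjusted p = 0.0639, edgeR). Against Cd 24 ug/L it was -1.04 ± 0.27 and was called (adjusted p = 0.0408).

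Replicate 4 of PCB126 0.8 nM had the highest CPM of its group for 35 of the 63 genes and for 9 of the 13 fibrillar genes. The same share over all genes is not given here, so a trait of these genes and one of the whole library cannot be told apart. When replicate 4 was left out, col1a1b, col1a2, col14a1b and p4ha2 joined loxl5b, col10a1a and col11a2 among genes lower than control. Against Cd 24 ug/L, col1a1b and col1a2 were then called beside loxl5b, col10a1a and col11a2, and col10a1b was not.

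Against control without the divergent libraries, 3 further fibrillar genes were called. There col11a1a fell by 0.34, col11a1b by 0.27 and col5a1 by 0.17 on the log2 scale (adjusted p = 0.028, 0.00349 and 0.0293). With all 28 libraries the values were -0.23 ± 0.18, -0.09 ± 0.17 and -0.10 ± 0.08, none of them called.

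The fibril-associated collagens, which decorate fibril surfaces, were not called with all libraries in any comparison. Against control at PCB126 0.8 nM, 3 of 8 lay below 0 (median 0.09), and without the divergent libraries 6 of 8 did (median -0.08). The 3 most abundant gave 0.07 ± 0.10 for col12a1a, -0.38 ± 0.14 for col14a1b and -0.03 ± 0.19 for col16a1. The gene col21a1 stood at 2.58 to 3.81 CPM at PCB126 0.8 nM, against 4.94 to 5.88 CPM at Cd 24 ug/L and 5.77, 5.73, 4.49 and 1.28 CPM in controls. It was not called with all libraries (-0.37 ± 0.37 against control) and fell by 0.66 without the divergent libraries (adjusted p = 0.00468).

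The basement membrane and anchoring collagens had a median log2 fold change of 0.15 at PCB126 0.8 nM against control, with 4 of 11 below 0 and none called. The median turned to -0.13 without the divergent libraries, with 9 of 11 below 0 and col18a1b alone called (-0.29, adjusted p = 0.0186). Those of highest TPM gave 0.15 ± 0.15 for col4a5, -0.04 ± 0.12 for col18a1a and 0.20 ± 0.18 for col4a6. The genes col4a1 and col4a2, whose chains pair in most basement membranes, had SEs of 0.57 and 0.43 with all libraries, and their values at PCB126 0.8 nM turned to -0.09 and -0.16 without the divergent ones, against 0.29 and 0.18 with them. Without the divergent libraries, col4a1 and col4a2 were lower at PCB126 0.08 nM, by -0.58 and -0.44 (adjusted p = 0.00478 and 0.00337), the pair lying head to head on chromosome 9 with 90940 bases between the genes. There col4a1 stood at 56.2, 77.5, 56.0 and 52.8 CPM at PCB126 0.08 nM, against 90.9, 90.7, 91.6 and 4.02 CPM in controls, of which only replicate 4 lay below the exposed libraries. At 0.8 nM col4a1 was back at 77.2 to 89.8 CPM. In all, 7 genes were called in that comparison without the divergent libraries, 2 of them higher (loxl2a and loxl2b), against 7.83% of all genes. The gene col4a3, whose chain belongs to the basement membranes of kidney and inner ear in mammals, lay above every control in CPM at PCB126 0.8 nM. It was not called (0.43 ± 0.15, adjusted p = 0.129). It overlaps col4a4 by 538 bases on the other strand.

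Network-forming type 8, made by endothelial and corneal cells, showed 0.16 ± 0.37 for col8a2 and 0.11 ± 0.16 for col8a1b at PCB126 0.8 nM against control. The microfibrillar genes gave 0.03 ± 0.12 for col6a1, -0.05 ± 0.13 for col6a2 and 0.43 ± 0.20 for col6a4a, and the transmembrane genes -0.14 ± 0.13 for col17a1a and 0.09 ± 0.10 for col17a1b. None of these was called. Without the divergent libraries the median of the 7 microfibrillar genes was -0.05, against 0.15 with them, and col6a2 fell by 0.20 (adjusted p = 0.014). Against Cd 24 ug/L, col17a1a stood at 293, 284, 272 and 372 CPM at PCB126 0.8 nM and at 381, 413, 372 and 394 CPM at Cd 24 ug/L (-0.35 ± 0.13, adjusted p = 0.255), and was called without the divergent libraries (adjusted p = 0.000789).

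The lysyl oxidases went both ways. Whereas loxl5b fell, loxl2b stood at 53.0, 52.9, 47.8 and 50.1 CPM at PCB126 0.8 nM, against 43.8, 42.7, 41.9 and 43.4 CPM in controls. It was not called with all libraries (0.25 ± 0.07, adjusted p = 0.0639) and rose without the divergent ones (0.25, adjusted p = 0.0217), with control replicate 4 inside the range of the other controls in CPM. In each of the 6 exposed groups every library of loxl2b, from 45.0 to 58.2 CPM, lay above every control, with the same 4 controls in all 6. That order depends on the scaling. On the TPM scale the controls stood at 15.56, 15.14, 14.64 and 7.42 TPM. Each Cd group then overlapped them, with lowest libraries of 8.63, 15.31 and 15.41 TPM at the rising doses. No PCB126 group did, with lowest libraries of 15.75, 15.69 and 16.21 TPM. The gene shares 1525 bases with sfrp1a on the same strand, whose log2 fold change was 0.21 ± 0.33. Its relative loxl2a stood at 24.3, 32.7, 32.8 and 34.0 CPM at PCB126 0.8 nM and 32.6, 34.5, 41.4 and 29.7 CPM at Cd 24 ug/L, against 21.1, 22.1, 22.5 and 4.38 CPM in controls. Its log2 fold changes of 0.81 ± 0.33 and 0.97 ± 0.33 were not called (adjusted p = 0.189 and 0.197). They were 0.50 and 0.66 without the divergent libraries and were called (adjusted p = 0.00532 and 0.000763). In mammals lysyl oxidase-like 2 is known to crosslink type 4 collagen.

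The founding family member loxa stood at 8.82, 9.20, 10.5 and 7.90 CPM at PCB126 0.8 nM, against 12.3, 10.98, 12.2 and 20.2 CPM in controls (-0.61 ± 0.18, adjusted p = 0.0578). The groups did not overlap in CPM, and the highest control there was the divergent replicate 4. On the TPM scale that replicate was instead the lowest control for loxa, at 11.54 TPM, inside the exposed range of 8.55 to 11.99 TPM. The remaining values against control were -0.11 ± 0.08 for loxl1, -0.22 ± 0.11 for loxl3b, -0.31 ± 0.26 for loxl3a and 0.37 ± 0.12 for loxl4, none called.

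Both lysyl hydroxylases and all 4 prolyl 4-hydroxylases remained without a call with all libraries. At PCB126 0.8 nM against control, plod1a gave -0.35 ± 0.12 and plod2 0.16 ± 0.21. The gene p4ha2, a catalytic subunit of prolyl 4-hydroxylase, stood at 11.2, 13.1, 11.01 and 15.5 CPM at PCB126 0.8 nM, against 15.8, 15.6, 16.1 and 24.9 CPM in controls (-0.50 ± 0.15, adjusted p = 0.0677). It fell by 0.31 without the divergent libraries (adjusted p = 0.0283). On the TPM scale control replicate 4 was instead the lowest control for p4ha2, at 13.2 TPM, inside the exposed range of 11.7 to 15.6 TPM. The other subunits ranged from -0.21 for p4ha1b to 0.19 for p4ha1a. The 4 genes that are no collagen or crosslinking gene ranged from -0.53 for loxhd1a, an inner ear hair cell protein in mammals, to 0.28 for col4a3bpb, a ceramide transfer protein, with none called.

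**Figure D5:**
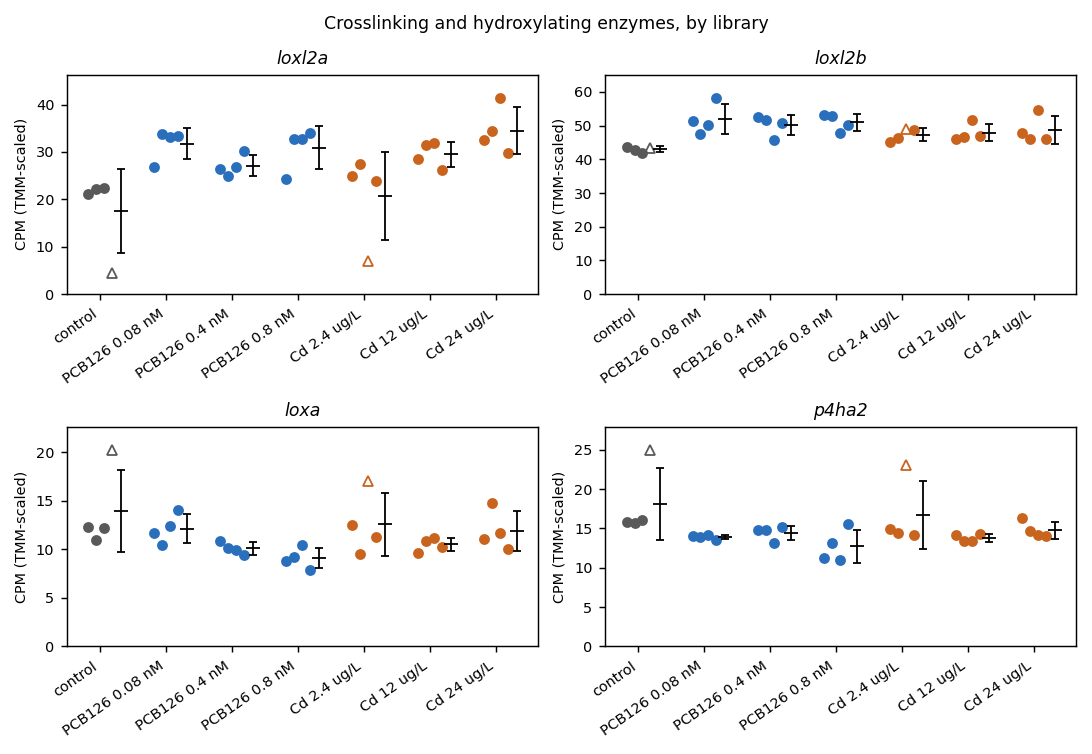
CPM (TMM-scaled) of loxl2a, loxl2b, loxa and p4ha2 in each library, by group, with the mean and SD of 4 libraries and the divergent libraries as open triangles. Every exposed library of loxl2b, at 45.0 to 58.2 CPM, lies above the controls at 41.9 to 43.8 CPM, which on the TPM scale does not hold for the Cd groups.

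Levels in CPM, whose order depends on the scaling of libraries, were also compared for overlap. By these, 5 of the 63 genes were higher and 6 lower at PCB126 0.8 nM than in controls with no overlap of libraries, against 5.48% and 4.49% of all genes. Between PCB126 0.8 nM and Cd 24 ug/L, 2 were higher (col28a2a and col4a3) and 18 lower without overlap, against 5.59% and 5.56% of all genes. Between Cd 24 ug/L and control, 9 were higher and 1, loxhd1a, was lower, against 4.38% and 3.44% of all genes.

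Genes that work around the collagens were read from 4 lists, whose counts at PCB126 0.8 nM against control stand beside 2.02% of all genes higher and 1.47% lower. Of 30 collagen maturation genes tested, bmp1a rose and serpinh1b fell at PCB126 0.8 nM against control. The gene serpinh1b encodes the chaperone that escorts procollagen through the secretory pathway. It stood at 16.7, 16.96, 17.1 and 25.7 CPM at PCB126 0.8 nM and at 16.4, 20.1, 20.2 and 11.9 CPM at Cd 24 ug/L, against 35.2, 37.8, 37.5 and 72.9 CPM in controls. Both groups lay below every control, with log2 fold changes of -1.26 ± 0.23 and -1.42 ± 0.23 (adjusted p = 0.00153 and 0.00139). It was also called at Cd 12 ug/L (-1.08 ± 0.23) and at PCB126 0.08 and 0.4 nM (-1.20 ± 0.23 and -0.99 ± 0.23), and the 3 calls ended without control replicate 4. Without both divergent libraries all 5 were called, at -0.94, -1.10, -0.77, -0.88 and -0.67 in the order given here. The gene bmp1a, a procollagen C-proteinase, rose by 0.40 ± 0.09 at PCB126 0.8 nM (adjusted p = 0.0133), a call that ended without replicate 3 of that group.

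Of 16 matrix turnover genes, 4 rose and none fell at PCB126 0.8 nM. They were the gelatinase gene mmp9 (1.71 ± 0.30), 2 gene models named mmp13a, a collagenase (2.19 ± 0.30 and 1.95 ± 0.35), and the inhibitor gene timp2b (1.55 ± 0.31), with adjusted p from 3.42e-05 to 0.00341. For mmp9 the libraries stood at 16.6, 31.8, 58.8 and 20.9 CPM at PCB126 0.8 nM, against 7.55, 10.6, 7.72 and 13.6 CPM in controls, so the rise was uneven. For timp2b they stood at 12.8, 29.6, 58.9 and 16.2 CPM at PCB126 0.8 nM, against 10.3, 11.9, 9.99 and 7.85 CPM in controls. Without replicate 3 of PCB126 0.8 nM its log2 fold change was 0.96 and that of mmp9 was 1.23, both still called. Of 16 bone genes, ostn (2.56 ± 0.31, adjusted p = 6.83e-06) and msx2b (0.68 ± 0.16, 0.0157) rose and none fell. The call of msx2b ended without control replicate 1 or without replicate 4 of PCB126 0.8 nM. The osteocrin gene ostn stood at 9.84, 8.45, 9.64 and 9.09 CPM at PCB126 0.8 nM, against 1.67, 2.11, 1.97 and 0.365 CPM in controls. It was also called at 0.4 nM (1.745 ± 0.31, adjusted p = 0.00239). At Cd 24 ug/L the osteopontin gene spp1 fell (-1.18 ± 0.23, adjusted p = 0.00694). Of 22 genes of collagen-binding matrix proteins, tnxba (-0.75 ± 0.12, adjusted p = 0.000315) and fbln5 (-0.51 ± 0.11, 0.00542) fell at PCB126 0.8 nM and none rose. With only the groups compared in the fit, the calls against control of these list genes ended, except those of ostn and 1 mmp13a model at PCB126 0.8 nM. Against Cd 24 ug/L, tnxba (-0.67 ± 0.12), ostn (1.77 ± 0.30) and that mmp13a model (1.62 ± 0.29) were called in all 14 alternatives.

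Markers of several cell types were called in the same comparison. Of 7 chondrocyte markers tested, 5 fell at PCB126 0.8 nM against control, where 1.47% of all genes were lower, and the marker snorc was at 0 counts. Their summed level was 1879 to 2308 CPM at PCB126 0.8 nM and 2646 to 2817 CPM at Cd 24 ug/L, against 2682 to 3342 CPM in controls. None of 7 osteoblast markers was called at PCB126 0.8 nM against control. Of these, spp1, which is also on the bone list, was lower at Cd 24 ug/L than in controls. It was higher at PCB126 0.8 nM than at Cd 24 ug/L. The 7 osteoblast markers summed to 76.1 to 96.4 CPM at PCB126 0.8 nM and 79.9 to 92.3 at Cd 24 ug/L, against 85.4 to 122 CPM in controls. Of 10 connective fibroblast and tendon markers 1 fell at PCB126 0.8 nM against control, and the list summed to 483 to 522 CPM at PCB126 0.8 nM, against 487 to 708 CPM in controls. Of 5 notochord markers tested, cav1 rose and epyc fell at PCB126 0.8 nM against control. The gene epyc is also among the 5 chondrocyte markers that fell. The notochord list summed to 291 to 327 CPM at PCB126 0.8 nM and 371 to 390 CPM at Cd 24 ug/L, against 332 to 352 CPM in controls. Of 7 skeletal muscle markers 1 fell at PCB126 0.8 nM against control. This list summed to 29025 to 33408 CPM at PCB126 0.8 nM, against 33142 to 75957 CPM in controls. Of 5 basal epidermis markers 2 rose (sums of 2619 to 4177 CPM at PCB126 0.8 nM, against 3176 to 7173 CPM in controls). In the muscle, epidermis and fibroblast lists the upper end of the control range lay well above the control mean. The control means were 44252 ± 21144, 4340 ± 1896 and 551 ± 105 CPM (SD). At PCB126 0.8 nM they were 31300 ± 1800, 3155 ± 700 and 494 ± 18.6 CPM, inside the control spread. These control ranges therefore do not show a fall of the lists. None of 5 vascular endothelium and 5 liver markers was called at PCB126 0.8 nM against control. Against Cd 24 ug/L, 4 of 7 chondrocyte, 2 of 5 notochord (epyc again) and 1 of 7 muscle markers were lower at PCB126 0.8 nM. There 2 of 10 fibroblast and tendon markers (prrx1a and prrx1b) and 1 of 5 liver markers were higher. Of all genes, 0.736% were called lower and 1.01% higher in that comparison. The part of these markers in the levels of col11a2, col10a1a and loxl5b was not tested.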

How the data were processed

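RNA from whole zebrafish larvae was sequenced as polyadenylated RNA, and 28 libraries in 7 groups of 4 were analysed. The deposited table holds raw counts per gene for 38318 genes; per the submitters' processing notes the tools included HISAT2 2.0.5 and featureCounts 1.5.0-p3 with the genome build GRCz11. The roles of these tools and the annotation release are not given in the sources used here. TPM values (27475 genes) were made by the authors from counts and gene length, and recomputing them from the deposited counts and lengths gave the same values. Gene length in bases is given per the file headers as another deposited column. No per-sample column was left unused.

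Genes were filtered by filterByExpr and tested with edgeR 4.0.16 in R 4.3.3 (TMM scaling and the two-sided quasi-likelihood test of glmQLFit and glmQLFTest). The p-values were adjusted by the Benjamini-Hochberg method over the genes kept in each fit. With all libraries these were 25393 for comparisons of groups, 24992 for the Cd slope and 24840 for the PCB126 slope. Every comparison of groups came from 1 fit of the 28 libraries, with group as the factor, which leaves 21 residual degrees of freedom. The 11 comparisons were 6 exposed groups against control, the top dose of a chemical against its own lowest dose (2 comparisons), the top doses of the 2 chemicals against each other, and a slope on dose for each chemical with its 16 libraries. A log2 fold change is that of the first group named over the second. The scripts were tested on simulated data.

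The alternatives were DESeq2 1.42.0, its size factors in edgeR, no filter on low counts, replicate number as a block, only the groups compared, leaving out the 2 divergent libraries, and leaving out each library in turn. No 2 libraries of a group agreed within sampling noise. The genes, the classes and the other gene lists were chosen with earlier results of these data known, so their direction is not independent evidence. Values are given for col10a1a and loxl5b in every group, for each gene called in at least 1 comparison, and for the 3 genes of highest mean TPM in each class. The other genes named with values (called under an alternative, not overlapping, or extreme in their class) were chosen after their values were seen, and genes of the other lists are named where called. No sequence is printed, since no genome was used here.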

Additional observations from a re-analysis of the deposited data

Results flagged for a closer look

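In 28 groups of 4 libraries (the 4 called genes in each of the 7 groups), the highest or lowest library was tested for standing apart from the other 3, and chance gives this in about 5% of groups. For col10a1a this held in controls, where replicate 4 stood at 556.5 CPM, and at PCB126 0.8 nM, where replicate 4 stood at 366.3 CPM. For col11a2 it held at Cd 2.4 ug/L, where replicate 3 stood at 371.3 CPM. Control replicate 4 and Cd 2.4 ug/L replicate 3 are the divergent libraries.

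Some levels differed between 2 exposed groups, by a test in edgeR of that difference itself. Between PCB126 0.8 nM and PCB126 0.08 nM the log2 fold change was -0.5097 for col11a2 and -1.309 for loxl5b. Between PCB126 0.8 nM and Cd 24 ug/L it was -0.5911 for col11a2, -1.63 for loxl5b, -0.5737 for col10a1a and -1.037 for col10a1b. The call of the first ended in 8 of 14 alternatives and that of the last in 9 of 14, and the other calls held in all 14 run for each.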

How the results depend on the processing

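With DESeq2 size factors in edgeR, and with no filter on low counts, each comparison's count of called genes stayed within 1.5 times. DESeq2's own test called 7 of the 63 genes at PCB126 0.8 nM against control, 1 at PCB126 0.08 nM against control, 4 between the highest and lowest PCB126 dose, 7 between the highest doses and 8 along the PCB126 slope. In the same order it called 5.91%, 0.922%, 2.17%, 2.58% and 4.67% of all genes. Without the 2 divergent libraries the counts were 12 at PCB126 0.8 nM, 7 at PCB126 0.08 nM and 2 at Cd 24 ug/L against control, 21 between the PCB126 doses, 3 between the Cd doses, 24 between the highest doses, 11 along the PCB126 slope and 3 along the Cd slope. The 21 between the PCB126 doses stand beside 2811 of the 25610 genes tested in that fit. With only the groups compared, 0 were called at PCB126 0.8 nM against control, 11 between the PCB126 doses and 11 between the highest doses. Leaving out a library at a time gave 2 to 7 calls at PCB126 0.8 nM against control, 1 to 4 between the PCB126 doses, 3 to 5 between the highest doses and 3 to 11 along the PCB126 slope, and 0 throughout in the Cd comparisons and at the 2 lower PCB126 doses. Between the PCB126 doses, leaving out replicate 4 of 0.8 nM gave 4 calls and leaving out any of the other 7 libraries gave 1. For fits of only the groups compared, and for those leaving out a library at a time, the share of all genes called is not given here. Their counts therefore cannot be set against all genes.

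The replicate numbers do not pair the libraries: deviations of same-numbered libraries from their group means correlated between -0.647 and 0.595. Both ends of that range came from Cd 2.4 ug/L against control, the groups that hold the divergent libraries. In the other comparisons the correlations lay between -0.270 and 0.254. With replicate number as a block, 5 genes were called along the PCB126 slope, with the share of all genes in that fit not given here. The calls of col11a2 between the PCB126 doses (adjusted p = 0.0562) and of col10a1b between the highest doses (adjusted p = 0.0598) ended with that block. No direction reversed in any of 189 alternative values for the called genes, of which 24 fell short of the threshold. The cause of these shifts was not tested. Depth limits the genes of few counts, loxl5b with 1590 and col10a1b with 917 counts over all libraries.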
